A study of Mus musculus with 48 samples.

Results

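Il23a, Il12b, Il12a, Il6, Osm, Tnf and Il10 encode cytokines or cytokine subunits tied to psoriasis or to its restraint, and their RNA was followed through 6 populations of mononuclear phagocytes from mouse ear skin. These 7 genes were taken by symbol from 19938 genes that had a probe set with a single gene symbol, and each had 1 such probe set. All 7 passed the filter on low values, a log2 level over 3.77 on at least 3 of 48 arrays, as did 15591 genes in all. Il12a did so narrowly, on 11 of 48 arrays, and Il23a on 28, while Osm, Tnf and Il10 were over that threshold on all 48.

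The cells were sorted by flow cytometry from mice 8 to 11 weeks old, whose strain and genotype are not given in the sources used here. The dermal populations were monocytes (CD11b+, CD64low, CCR2+, Ly-6Chi, MHCIIlow), monocyte-derived dendritic cells (the same but MHCII+), MHCII-low and MHCII-high macrophages (CD11b+, CD64hi, CCR2low, Ly-6Clow) and CD11b+ conventional dendritic cells (CD64-, Ly-6C-, MHCII+, CD24-). The epidermal population was Langerhans cells (CD11b+, MHCII+, CD24+). Untreated mice were compared with mice given 5% imiquimod cream, 7 mg on each side of the ear, in a course of 14 days, with cells taken at day 5 or day 11. Imiquimod is an agonist of the RNA sensor TLR7 and gives a psoriasis-like inflammation of mouse skin. Each of the 16 groups had 3 arrays: 4 populations have all 3 conditions, monocytes lack day 11 and MHCII-high macrophages lack day 5. RNA inputs of 1 to 20 ng went through 2 rounds of amplification, and the 3 samples of a group may be technical repeats, as no label names separate mice, and p-values then cover only the spread among these samples.

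IL-23 is a heterodimer of a subunit encoded by Il23a and a subunit encoded by Il12b. IL-12 uses the same Il12b product and pairs it with the product of Il12a, so that Il12b RNA alone does not tell the cytokines apart. IL-23 sustains T cells that make IL-17 and IL-22, and antibodies against IL-23 or TNF are established treatments of psoriasis. IL-6 and oncostatin M signal through receptors that share the gp130 chain encoded by Il6st. Oncostatin M acts on keratinocytes and fibroblasts, and IL-10 restrains myeloid cells through STAT3.

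Array medians ran from 4.10 to 4.37, and 43 of 48 arrays correlated best with another array of their own group. Untreated monocyte replicates 2 and 3 stood farthest from their group, and the mean of 7 fibroblast markers was 10.37 on replicate 2 against 6.83 and 7.77 on replicates 1 and 3. The defining markers separated the sorts in the main: the mean of 5 Langerhans markers lay at 10.73 to 11.09 on the 9 Langerhans arrays and at most at 9.09 on a dermal array, and the mean of 7 macrophage markers was 9.51 to 10.48 on the macrophage arrays and reached 9.24 on untreated monocyte-derived dendritic cell replicate 1. The letter that opens the sample titles follows treatment and day in the dermal populations, and it also separates untreated Langerhans cells from untreated dermal cells. There, a batch tied to that letter and the treatment, day or population cannot be told apart. Untreated and day 5 Langerhans cells share the letter, but day 11 Langerhans cells have another. Langerhans comparisons of day 11 with untreated or day 5 therefore have the same limit, as do differences between the Langerhans response and a dermal one.

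Differences below are log2 differences between group means ± SE from 1 limma model over all arrays (n = 3 a group). The words rose and fell are used at a Benjamini-Hochberg adjusted p under 0.05 over all 15591 genes. At day 5 against untreated, 9 of 35 tests of the 7 genes over 5 populations passed, and 14 had an unadjusted p under 0.05. In Langerhans cells 3 of 7 rose, against 16.1% of all genes called in either direction there. In CD11b+ dendritic cells 1 rose and 1 fell (7.98% of all genes called). Monocytes and monocyte-derived dendritic cells had 1 rise each (12.7% and 11.3%), and MHCII-low macrophages had 2 falls (14.2%). At day 11 against untreated, 11 of 35 tests passed, 16 at an unadjusted p under 0.05. MHCII-low macrophages had 4 falls (9.72% of all genes called), MHCII-high macrophages 3 falls (14.9%), monocyte-derived dendritic cells 1 fall (8.42%), CD11b+ dendritic cells 1 rise and 1 fall (10.3%) and Langerhans cells 1 rise (17.7%). Day 5 and day 11 differences share their untreated arrays.

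**Figure D1:**
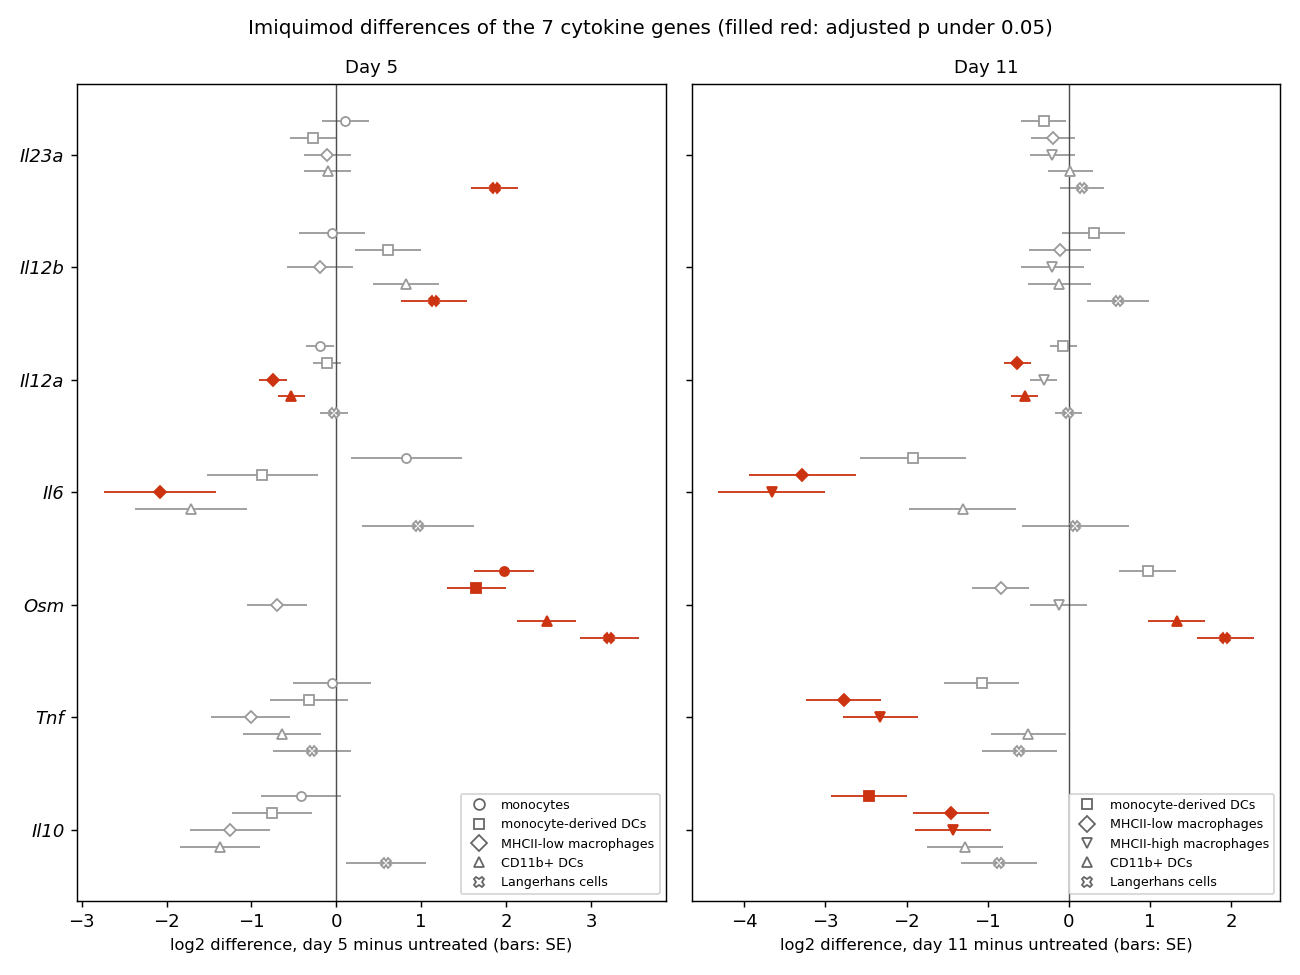
Log2 difference of each of the 7 cytokine genes (rows) between imiquimod at day 5 (left) or day 11 (right) and untreated cells, with a symbol for each population and SE bars from limma, n = 3 arrays in each group. Filled red symbols have an adjusted p under 0.05. The 6 red symbols right of 0 at day 5 are Osm in 4 populations and Il23a and Il12b in Langerhans cells, and 9 of the 11 red symbols at day 11 lie left of 0.

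Il23a, the subunit specific to IL-23, was detected clearly in 1 group, the Langerhans cells at day 5. There it stood at 5.13, 5.01 and 6.93 on the 3 arrays, against 3.93, 3.87 and 3.66 in untreated Langerhans cells and 3.79, 3.80 and 4.37 at day 11. All 3 day 5 arrays were above every other array of the study, and replicate 3 stood well above the other 2. The mean at day 5 was 5.69 ± 1.08 (SD, n = 3), and the means of the other 15 groups lay between 3.66 and 3.99, near the filter threshold, with ranges that overlapped between every pair of neighbours in their order.

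In Langerhans cells Il23a rose by 1.86 ± 0.27 at day 5 (limma adjusted p = 2.38e-06), from untreated levels at the threshold, where a difference may be understated, and fell by 1.70 ± 0.27 from day 5 to day 11 (adjusted p = 0.000154). Without day 5 replicate 3 the rise was 1.24 and Il23a fell by 1.08 from day 5 to day 11 (adjusted p = 0.0012). Fitted on the groups compared alone, the fall had an adjusted p of 0.152. Over all alternatives the rise ran from 1.24 to 2.20, with adjusted p up to 0.0271. The SE of 0.27 rests on 1 estimate of spread shared by the 16 groups, while the day 5 Langerhans arrays had an SD of 1.08. At day 11 Langerhans cells stood 0.16 ± 0.27 above untreated (95% interval -0.39 to 0.72, adjusted p = 0.795). A change in the share of cells that express a gene and a change in RNA per cell cannot be told apart in such bulk samples.

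Among the 4 dermal populations profiled at day 5, Il23a means were 3.69 to 3.98. Their differences from untreated ran from -0.28 in monocyte-derived dendritic cells to 0.11 in monocytes, none past the test. At day 5 the Langerhans level exceeded that of each of the 4, by 1.71 ± 0.27 over monocytes (adjusted p = 8.77e-06) and by 1.99 ± 0.27 over monocyte-derived dendritic cells (adjusted p = 7.33e-07). Without Langerhans replicate 3, the margin over monocytes was 1.08 (adjusted p = 0.000125). Across pairs of populations at day 5, 22 of 70 tests of the 7 genes passed, against 11.2% of tests over all genes. In untreated skin 0 of 15 pairs differed in Il23a by limma.

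Markers of other cells moved with this result. The mean of 3 monocyte markers (Ccr2, Plac8 and Vcan) was 3.44 to 3.68 on untreated Langerhans arrays, with all 3 at or below the threshold, and 7.08, 6.73 and 6.18 at day 5, where 3 of 3 rose. At day 11 it was 3.96 to 5.48. Replicate 3, with the highest Il23a, had the lowest monocyte mean of the 3 day 5 arrays. Of 6 conventional dendritic cell markers, a list that includes Ccr7, 4 rose (6.02 to 6.27 untreated, 7.58 to 7.85 at day 5), 3 of 7 fibroblast and 3 of 7 macrophage markers rose, and 8 of 12 keratinocyte markers fell (9.33 to 9.71 untreated, 7.34 to 8.08 at day 5). None of the 5 Langerhans markers changed by the test, and Cd207 was 11.22 ± 0.19 untreated and 10.69 ± 0.15 at day 5. The part of such cells in the Il23a rise was not tested. The sorted dermal monocytes and CD11b+ dendritic cells themselves had Il23a at 3.98 ± 0.32 and 3.77 ± 0.25 (SD) at day 5.

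The genes whose group means followed Il23a most closely over the 16 groups were Gpr33, an orphan chemoattractant receptor (Pearson r = 0.90), Tdgf1, a NODAL co-receptor (0.89), and Clec9a, a receptor for dead cells best known from cross-presenting dendritic cells (0.88). The rank correlations were 0.59, 0.29 and 0.18, so that these likenesses rest mainly on the day 5 Langerhans group, and the groups share arrays and normalisation. Clec9a stood at 3.10, 3.07 and 3.12 in untreated Langerhans cells and at 6.42, 5.22 and 5.29 at day 5, and ran from 2.74 to 3.69 on the 39 dermal arrays. Xcr1, another gene of cross-presenting dendritic cells, looked up after these values were seen, was 3.20, 2.97 and 3.04 untreated and 4.77, 4.16 and 3.88 at day 5. At day 11, when Il23a was back near the threshold, Clec9a was 3.15, 5.25 and 4.04 and Xcr1 was 3.23, 5.58 and 3.82. On those 3 arrays Il23a was 3.79, 3.80 and 4.37. Cross-presenting dendritic cells were not among the 6 sorted populations, and their part in the Il23a rise was not tested.

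**Figure D2:**
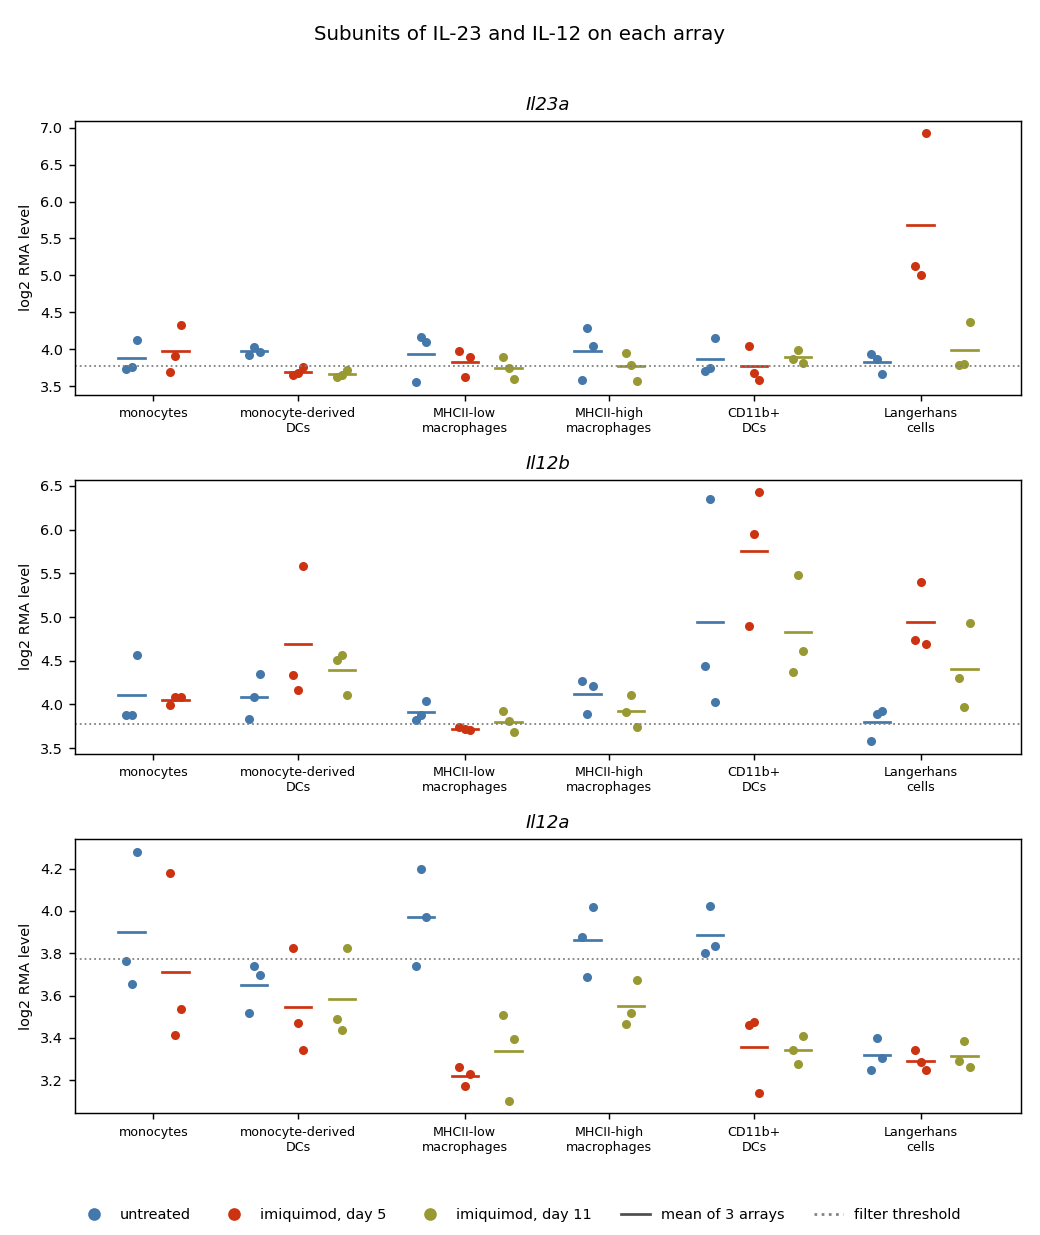
Log2 RMA level of Il23a, Il12b and Il12a on each of the 48 arrays (points) by population and treatment, with the mean of 3 arrays (bars) and the filter threshold at 3.77 (dotted line). All 3 Il23a points of day 5 Langerhans cells lie above every other Il23a point, Il12b is highest in day 5 CD11b+ dendritic cells, and Il12a is at most 4.28 on any array and lies over the threshold mainly in untreated dermal cells.

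Il12b, the subunit shared by IL-23 and IL-12, was highest in CD11b+ dendritic cells. At day 5 it stood there at 4.90, 5.95 and 6.43, untreated at 4.44, 6.35 and 4.03, and at day 11 at 4.37, 5.49 and 4.61. Untreated replicate 2 overlapped the day 5 arrays, and the difference of 0.82 ± 0.39 at day 5 did not pass (95% interval 0.04 to 1.60, adjusted p = 0.212). Without that replicate it was 1.52 and passed (adjusted p = 0.00511). At day 5 CD11b+ dendritic cells held more Il12b than MHCII-low macrophages (2.04 ± 0.39, adjusted p = 0.000152), in which it was 3.74, 3.72 and 3.70, and more than monocytes (1.71 ± 0.39, adjusted p = 0.00245).

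In Langerhans cells Il12b was 3.58, 3.89 and 3.92 untreated, 4.73, 5.41 and 4.69 at day 5, and 4.30, 3.97 and 4.94 at day 11. Untreated levels were near the threshold, where a difference may be understated. Day 5 arrays lay above all untreated ones, and Il12b rose by 1.15 ± 0.39 (adjusted p = 0.0353). The call was lost without any 1 of the 3 untreated arrays, and without day 5 replicate 1 or 2. Over all alternatives the difference ran from 0.92 to 1.27, with adjusted p up to 0.194. At day 11 it was 0.61 ± 0.39 (adjusted p = 0.337). Day 5 CD11b+ dendritic cells, with the highest Il12b mean (5.76, against 4.94 in day 5 Langerhans cells), had Il23a at 4.05, 3.67 and 3.58. The mean of the 6 dendritic cell markers on Langerhans arrays was 6.02 to 6.27 untreated and 7.58 to 7.85 at day 5. The part of such cells in the Il12b rise was not tested.

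Over the 16 groups Il12b was most like Pdcd1lg2, which encodes the checkpoint ligand PD-L2 (r = 0.94), Socs2, a feedback inhibitor of cytokine signalling (0.91), and Ccr7, the chemokine receptor of migrating dendritic cells (0.90), with rank correlations of 0.87, 0.90 and 0.90. In Langerhans cells Ccr7 was 6.97, 7.82 and 6.72 untreated, 10.27, 10.59 and 10.21 at day 5, and 8.46, 9.14 and 8.83 at day 11. Pdcd1lg2 was 3.56 ± 0.22 untreated, 6.99 ± 0.52 at day 5 and 5.34 ± 0.23 at day 11 (SD, n = 3). Both had the order of Il12b, lowest untreated and highest at day 5.

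Il12a, the subunit specific to IL-12, was near or below the threshold in every group, and its group means ranged from 3.22 to 3.97. It was 3.74, 4.2 and 3.97 in untreated MHCII-low macrophages, 3.26, 3.17 and 3.23 at day 5, and 3.51, 3.10 and 3.40 at day 11. Treated arrays were all lower than untreated ones, and all 6 lay below the threshold, so that the direction can be read but not the size. Il12a fell by 0.75 ± 0.16 at day 5 (adjusted p = 0.00138) and by 0.63 ± 0.16 at day 11 (adjusted p = 0.00894, lost without untreated or day 11 replicate 2 and when fitted on the groups compared alone). In CD11b+ dendritic cells it fell by 0.53 ± 0.16 at day 5 (adjusted p = 0.0369) and by 0.54 ± 0.16 at day 11 (adjusted p = 0.0266). The day 5 call was lost without any 1 of its 6 arrays, and the day 11 call without untreated replicate 2 or 3 or day 11 replicate 1 or 2. In Langerhans cells Il12a was below the threshold on all 9 arrays, and at day 5 its difference was -0.03 ± 0.16 (95% interval -0.36 to 0.30).

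Osm, which encodes oncostatin M, was the member that rose in the most populations, 4 of 5 at day 5. In Langerhans cells it was 4.04, 3.87 and 4.26 untreated, 7.63, 7.13 and 7.06 at day 5, and 5.52, 6.46 and 5.98 at day 11. The 3 conditions did not overlap. Untreated levels were near the threshold, where folds may be understated. Osm rose by 3.22 ± 0.35 at day 5 (9.29-fold, adjusted p = 5.59e-09) and by 1.93 ± 0.35 at day 11 (3.81-fold, adjusted p = 7.57e-05). Between the days it fell by 1.29 ± 0.35 (adjusted p = 0.0395), a call that was lost without any 1 of 5 of the 6 arrays (all but day 11 replicate 2) and under 5 other settings. Of all genes 2.12% were called in that comparison, which held both of the member calls between the days (2 of 28 tests, 7 at an unadjusted p under 0.05).

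In CD11b+ dendritic cells Osm was 6.11, 8.06 and 7.27 untreated, 9.49, 9.64 and 9.75 at day 5, and 8.08, 8.53 and 8.82 at day 11. It rose by 2.48 ± 0.35 at day 5 (5.56-fold, adjusted p = 6.39e-06). At day 11 it rose by 1.33 ± 0.35 (adjusted p = 0.0108), but by 0.82 with an adjusted p of 0.162 without untreated replicate 1, the lowest array.

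In monocytes Osm was 9.14, 8.18 and 8.47 untreated and 10.28, 10.55 and 10.87 at day 5, a rise of 1.97 ± 0.35 (adjusted p = 0.000243, and up to 0.00308 without any 1 untreated array). In monocyte-derived dendritic cells it was 8.94, 8.47 and 8.72 untreated, 10.29, 10.41 and 10.37 at day 5, and 9.75, 9.76 and 9.55 at day 11. It rose there by 1.65 ± 0.35 at day 5 (adjusted p = 0.00198), and the difference of 0.98 ± 0.35 at day 11 did not pass (adjusted p = 0.0768). Treated and untreated arrays did not overlap in either population. Without untreated monocyte replicates 2 and 3 the monocyte difference was 1.43 (adjusted p = 0.0889), with 1 untreated array left and assumed to vary like the other groups. In monocyte-derived dendritic cells the mean of the 3 monocyte markers was 8.89 to 9.66 untreated and 10.11 to 10.29 at day 5, where 1 of 3 rose, and its part in the Osm rise was not tested. In monocytes 3 of 7 fibroblast markers fell and 6 of 17 genes of the early stress response to tissue dissociation rose at day 5 (mean 9.18 to 9.46 untreated, 9.54 to 9.80 at day 5).

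The macrophages had no such rise. Osm in MHCII-low macrophages was 9.01, 8.35 and 8.50 untreated, 7.73, 8.42 and 7.60 at day 5, and 7.06, 8.26 and 8.02 at day 11, with differences of -0.70 ± 0.35 (adjusted p = 0.199) and -0.84 ± 0.35 (adjusted p = 0.137). In MHCII-high macrophages it was 8.68, 8.77 and 7.75 untreated and 7.69, 8.67 and 8.48 at day 11 (-0.12 ± 0.35, 95% interval -0.83 to 0.59). The Langerhans response at day 5 exceeded that of MHCII-low macrophages by 3.92 (adjusted p = 4.18e-07). Of 28 such differences of the 7 genes between the Langerhans response and that of a dermal population, 8 passed at day 5 (9.55% of tests over all genes) and 5 at day 11 (8.51%), all with the Langerhans value higher. For Il6 and Il12a these set macrophage falls against untreated Langerhans levels mostly below the threshold.

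Langerhans cells started from the lowest Osm of all groups. Untreated they were below each of the 5 dermal populations, by 3.09 ± 0.35 (CD11b+ dendritic cells) to 4.65 ± 0.35 (monocyte-derived dendritic cells), the latter with an adjusted p of 2.18e-13. Across pairs of untreated populations 32 of 105 tests of the 7 genes passed, against 14.8% of tests over all genes, and 9 of those 32 were Osm. At day 5 the Langerhans mean of 7.27 was still 3.30 ± 0.35 below that of monocytes (adjusted p = 2.1e-09). The monocyte marker values above move with this rise too, 3.44 to 3.68 untreated against 6.18 to 7.08 at day 5. The order of the 3 day 5 Langerhans arrays is the same for Osm and for the monocyte mean, and the part of such cells was not tested. In CD11b+ dendritic cells 2 of 3 monocyte markers rose at day 5 (5.78 to 6.98 untreated, 8.17 to 8.29 at day 5), as did 3 of 5 Langerhans markers (6.34 to 6.51 against 8.40 to 8.60).

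Over the 16 groups Osm was most like Pilra, an inhibitory immunoglobulin-type receptor of myeloid cells (r = 0.93), Phf11a (0.89) and Cd274, which encodes the checkpoint ligand PD-L1 (0.89). The rank correlations were 0.75, 0.76 and 0.76.

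**Figure D3:**
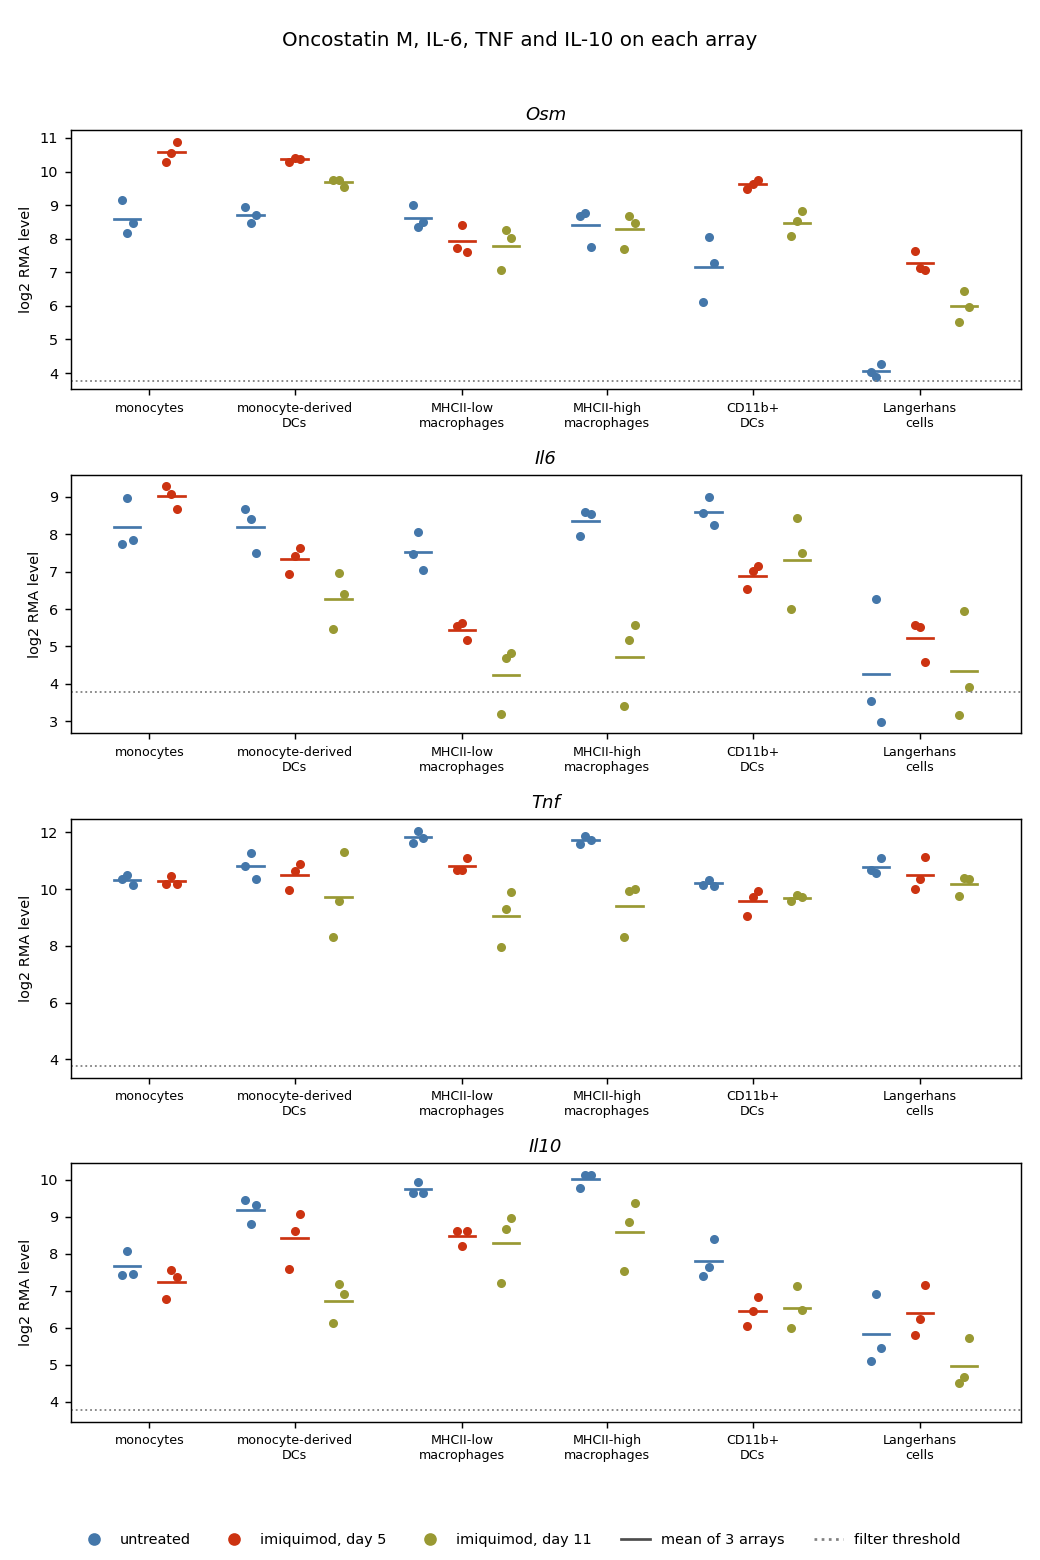
Log2 RMA level of Osm, Il6, Tnf and Il10 on each of the 48 arrays (points) by population and treatment, with the mean of 3 arrays (bars) and the filter threshold at 3.77 (dotted line). Osm at day 5 lies above untreated in 4 of the 5 populations profiled then, all but MHCII-low macrophages, while the means of Il6, Tnf and Il10 in both macrophage populations are lowest at day 11.

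Il6 and Tnf, both targets of inflammatory transcription factors, fell together in the macrophages at day 11, and their promoter windows are shown for that reason. The windows are RefSeq sequences of GRCm38.p6 from 250 bases before to 50 bases after the annotated start, on the gene's strand, and the table held 4 of the 7 members (Il6, Tnf, Il12b and Il12a). Capitals mark matches, on either strand, to the NF-kB consensus, to the AP-1 motif TGANTCA, to the C/EBP motif TTGCNNAA or to the TATA motif TATAAA. None of the matches overlapped.
Il6, chr5:30012864-30013163, plus strand: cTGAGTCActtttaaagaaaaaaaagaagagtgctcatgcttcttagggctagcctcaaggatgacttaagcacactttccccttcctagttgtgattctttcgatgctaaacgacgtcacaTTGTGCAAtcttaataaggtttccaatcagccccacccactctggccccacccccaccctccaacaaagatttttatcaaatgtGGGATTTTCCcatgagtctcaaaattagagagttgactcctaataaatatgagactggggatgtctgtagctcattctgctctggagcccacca
Tnf, chr17:35201958-35202257, minus strand: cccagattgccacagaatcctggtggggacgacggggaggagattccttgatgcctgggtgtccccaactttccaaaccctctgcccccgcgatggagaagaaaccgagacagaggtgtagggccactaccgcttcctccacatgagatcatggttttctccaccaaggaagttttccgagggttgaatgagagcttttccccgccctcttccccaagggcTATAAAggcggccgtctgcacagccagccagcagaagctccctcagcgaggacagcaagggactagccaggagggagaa
In the Il6 window the capitals are, in order, an AP-1 match, a C/EBP match and an NF-kB match that begins 44 bases before the start. In the Tnf window the only match is the TATA motif, which begins 29 bases before the start. Of all 32851 windows of this length, 8.46% hold the NF-kB consensus, 7.81% the AP-1 motif, 10.8% the C/EBP motif and 13.6% the TATA motif. The Il12b and Il12a windows held none of the 4. A match describes letters in these windows and no binding was measured.

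Il6 was broadly present in untreated dermal cells and low in Langerhans cells. In MHCII-low macrophages it was 7.47, 8.06 and 7.05 untreated, 5.56, 5.62 and 5.16 at day 5, and 3.19, 4.69 and 4.83 at day 11, without overlap between the conditions. It fell by 2.08 ± 0.66 at day 5 (adjusted p = 0.0283) and by 3.29 ± 0.66 at day 11 (adjusted p = 0.000758). Day 11 replicate 1 lay below the threshold, where the size of a fall may be understated. The day 5 call was lost without any 1 of the arrays compared except untreated replicate 3 (adjusted p up to 0.119). In MHCII-high macrophages Il6 was 7.95, 8.61 and 8.55 untreated and 3.40, 5.17 and 5.56 at day 11, again with replicate 1 below the threshold. It fell there by 3.66 ± 0.66 (adjusted p = 0.000147). Other marker lists moved with these falls, and their part was not tested. The fibroblast mean in MHCII-low cells was 6.55 to 7.01 untreated, 5.50 to 5.83 at day 5 and 5.69 to 5.86 at day 11, with 1 of 7 falling at each day, and in MHCII-high cells 6.32 to 7.01 and 5.63 to 6.24, with 0 of 7. The mast cell mean in MHCII-low cells was 4.69 to 6.08 untreated and 4.33 to 4.62 at day 5, where 3 of 7 tested markers and 5 of 12 keratinocyte markers fell. All 4 MHC class II genes fell there at day 5 (9.78 to 10.15 untreated, 8.73 to 9.10). The monocyte mean in these cells was 5.57 to 6.26 untreated and 4.57 to 5.10 at day 11.

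Between day 5 and day 11, 0 of the 7 genes were called in MHCII-low macrophages by limma, where 0.481% of all genes were, and Il6 differed by -1.21 ± 0.66.

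The other dermal populations had no Il6 call. Il6 in monocytes was 7.75, 8.96 and 7.85 untreated and 9.28, 9.08 and 8.67 at day 5, its highest group mean, with overlapping arrays (0.83 ± 0.66, adjusted p = 0.45). Monocyte-derived dendritic cells held 8.67, 8.42 and 7.51 untreated and 5.47, 6.96 and 6.40 at day 11, where the arrays did not overlap but the difference of -1.92 ± 0.66 did not pass (adjusted p = 0.0621). CD11b+ dendritic cells held 8.58, 8.99 and 8.25 untreated, 6.53, 7.01 and 7.14 at day 5 and 5.99, 8.42 and 7.49 at day 11. The day 5 difference there was -1.71 ± 0.66 (adjusted p = 0.108). In these populations 1.01% and 0.962% of all genes were called between day 5 and day 11, and 0 of the 7 members by limma.

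In Langerhans cells Il6 varied within groups, with 3.53, 6.27 and 2.99 untreated, 5.58, 5.52 and 4.57 at day 5, and 3.16, 5.96 and 3.91 at day 11. Untreated replicate 2 was above both treated groups. Without it the day 5 difference was 1.96 and passed (adjusted p = 0.0368). The mean was below that of each untreated dermal population, by 3.26 ± 0.66 (MHCII-low macrophages, adjusted p = 0.000152) to 4.34 ± 0.66 (CD11b+ dendritic cells, adjusted p = 1.97e-06). Il6 was most like Ntn5, a netrin family gene (r = 0.96), Kdm7a, a histone demethylase (0.93), and Fem1c, a ubiquitin ligase component (0.92). The group means of Ntn5 spanned only 0.42 on the log2 scale, against 4.77 for Il6.

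Tnf was over the threshold on every array. It was highest in untreated macrophages, at 11.61, 12.06 and 11.81 in MHCII-low and 11.58, 11.88 and 11.73 in MHCII-high cells. Both stood above untreated monocytes, by 1.5 ± 0.46 (adjusted p = 0.0184) and 1.41 ± 0.46 (adjusted p = 0.0389). The first call was lost without untreated monocyte replicate 3 or MHCII-low replicate 2, and the second without any 1 of its 6 arrays (adjusted p up to 0.112). In MHCII-low macrophages Tnf was 10.66, 10.68 and 11.11 at day 5, below all untreated arrays but not past the test (-1.01 ± 0.46, adjusted p = 0.15), and 7.96, 9.30 and 9.90 at day 11, when it fell by 2.77 ± 0.46 (6.84-fold lower, adjusted p = 6.7e-05). In MHCII-high macrophages it was 8.30, 9.93 and 9.99 at day 11 and fell by 2.32 ± 0.46 (5.01-fold lower, adjusted p = 0.000476).

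In the other 4 populations Tnf passed the test at neither day with all arrays. Day 5 differences ran from -0.64 ± 0.46 in CD11b+ dendritic cells to -0.06 ± 0.46 in monocytes. Monocyte-derived dendritic cells at day 11 were uneven, with 8.33, 9.57 and 11.32 against 10.80, 11.28 and 10.35 untreated (-1.07 ± 0.46, adjusted p = 0.147). Without replicate 3 the difference was -1.86 and passed (adjusted p = 0.00728). Langerhans cells held 10.68, 10.57 and 11.10 untreated, 10.02, 10.35 and 11.12 at day 5 and 9.75, 10.39 and 10.37 at day 11. Tnf RNA was thus high in them without treatment, and the day 5 difference was -0.29 ± 0.46 (95% interval -1.22 to 0.65). Tnf was most like Peli1, a ubiquitin ligase of Toll-like receptor signalling (r = 0.87), Nfyc (0.85) and the neutrophil chemokine gene Cxcl2 (0.85).

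Il10 was also highest in untreated macrophages, at 9.77, 10.14 and 10.13 in MHCII-high and 9.63, 9.93 and 9.65 in MHCII-low cells. It was lowest in Langerhans cells, 5.10, 6.91 and 5.44 untreated, 5.81, 6.24 and 7.15 at day 5 and 4.50, 4.67 and 5.71 at day 11. Untreated Langerhans cells lay below all 5 dermal populations, by 1.84 ± 0.47 (monocytes, adjusted p = 0.00241, and 0.0934 where untreated monocyte replicate 1 is the only monocyte array) to 4.19 ± 0.47 (MHCII-high macrophages, adjusted p = 3.7e-09).

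In monocyte-derived dendritic cells Il10 was 9.45, 8.79 and 9.32 untreated, 7.60, 8.60 and 9.08 at day 5, and 6.11, 7.17 and 6.90 at day 11. The day 11 arrays were below all others, and Il10 fell by 2.46 ± 0.47 (5.50-fold lower, adjusted p = 0.000822). The falls in macrophages at day 11 were less secure. MHCII-low macrophages held 7.22, 8.67 and 8.97 (-1.45 ± 0.47, adjusted p = 0.0417) and MHCII-high macrophages 7.52, 8.86 and 9.38 (-1.43 ± 0.47, adjusted p = 0.0346). Without day 11 replicate 1 these differences were -0.92 (adjusted p = 0.319) and -0.89 (adjusted p = 0.259), and each call was also lost without several other single arrays. In CD11b+ dendritic cells treated arrays were below untreated ones at both days, but -1.37 ± 0.47 and -1.28 ± 0.47 did not pass (adjusted p = 0.0643 and 0.0761). Between pairs of populations at day 11, 20 of 70 tests of the 7 genes passed (10.4% over all genes), 8 of them Il10 and 7 Osm. Over the 16 groups Il10 was most like the monocyte chemokine gene Ccl7 (r = 0.96), Rab7b, a small GTPase of endosomes (0.96), and Lifr, a receptor chain of the IL-6 family (0.93).

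With the 16 groups ordered by their means, the arrays of neighbouring groups were separate in 3 of 15 pairs for Osm, in 1 of 15 each for Il23a, Tnf and Il10, and in 0 of 15 each for Il12b, Il12a and Il6, so that the order between most neighbours was within their spread.

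Levels of several members moved together within numbered sets of arrays. At day 11 the array with number 1 in its title had the lowest Il6, the lowest Tnf and the lowest Il10 of its group in all 5 populations, and the lowest Osm in 4 of 5. At day 5 the array numbered 2 had the lowest Tnf in 5 of 5 groups, and among untreated dermal samples the array numbered 2 had the highest Tnf in 5 of 5. The labels do not say what the numbers stand for. Over all genes the deviations of arrays with the same letter and number correlated weakly (median r = 0.042).

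The stress response genes, a list of 17, were also low on the day 11 arrays numbered 1 in the macrophages. Their mean was 9.25 against 9.72 and 9.80 in MHCII-low cells and 9.40 against 9.81 and 9.86 in MHCII-high cells. It was 9.86 to 10.05 and 9.85 to 9.95 on the untreated arrays, and 5 and 4 of the 17 fell at day 11. In MHCII-low cells at day 5 the mean was 9.38 to 9.52, and 6 of 17 fell. In Langerhans cells it was 9.94 to 10.07 untreated, 9.37 to 9.66 at day 5 and 9.06 to 9.41 at day 11. In order of their title numbers, the day 11 arrays had 9.06, 9.37 and 9.41 in Langerhans cells. They had 9.39, 9.41 and 9.41 in monocyte-derived dendritic cells, where number 1 was hardly lower. In CD11b+ dendritic cells they had 9.14, 9.10 and 9.44, and number 1 was not the lowest. The labels describe a dispase step done either warm or overnight in the cold and do not say which samples had which. The part of dissociation in the falls of Il6, Tnf and Il10 was not tested. With the 5 day 11 arrays numbered 1 left out, an alternative chosen after these values were seen, Il6 fell by 2.76 and Tnf by 2.23 in MHCII-low macrophages (adjusted p = 0.00296 and 6.83e-05), and by 3.0 and 1.77 in MHCII-high macrophages (adjusted p = 0.000832 and 0.000702). Il10 passed in neither without those arrays (adjusted p = 0.242 and 0.193).

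**Figure D4:**
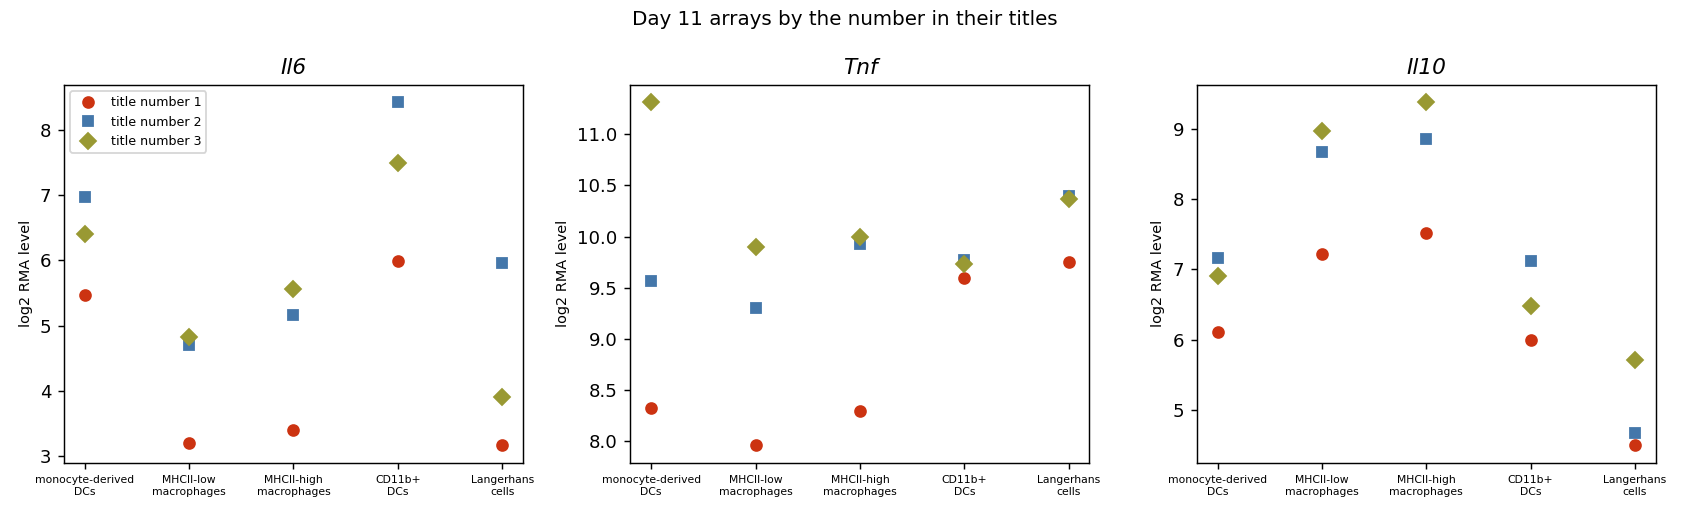
Log2 RMA level of Il6, Tnf and Il10 on the 15 day 11 arrays, by population, with a symbol and colour for the number in the sample title. In each panel and population the array numbered 1 is the lowest of the 3.

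Of 77 further genes listed for the pathways of these cytokines, 67 were tested. Of all genes, 8.64% rose and 7.49% fell in Langerhans cells at day 5, 6.43% and 6.31% in monocytes, 5.68% and 5.61% in monocyte-derived dendritic cells, 7.22% and 6.95% in MHCII-low macrophages and 3.01% and 4.96% in CD11b+ dendritic cells. At day 11, 9.31% rose and 8.4% fell in Langerhans cells, 2.58% and 5.84% in monocyte-derived dendritic cells, 4.33% and 5.39% in MHCII-low macrophages, 7.45% and 7.49% in MHCII-high macrophages and 3.55% and 6.79% in CD11b+ dendritic cells. Of 12 receptor genes of these cytokines and of IL-17, 0 rose and 0 to 4 fell in each population at day 5. In Langerhans cells at day 5 the 3 falls included the oncostatin M receptor gene Osmr (-0.95 ± 0.28, adjusted p = 0.0142) and the TNF receptor gene Tnfrsf1a (-0.79 ± 0.22, adjusted p = 0.00864), while the gp130 gene Il6st differed by -0.36 ± 0.30. The keratinocyte marker mean was 9.33 to 9.71 on the untreated Langerhans arrays and 7.34 to 8.08 at day 5. The part of keratinocytes, or of other cells whose markers moved in these arrays, was not tested for any Langerhans change in a pathway gene. In monocytes Il6st fell by 1.57 ± 0.30, and in MHCII-low macrophages the IL-6 receptor gene Il6ra fell by 1.78 ± 0.33. Tnfrsf1b fell by 1.18 ± 0.26 in Langerhans cells from day 5 to day 11. In CD11b+ dendritic cells at day 11, 6 of 12 receptor genes fell, among them Il17ra by 1.79 ± 0.39, and Il10rb rose by 1.06 ± 0.28. The IL-12 receptor chain genes Il12rb1 and Il12rb2 differed by -0.14 ± 0.13 and 0.17 ± 0.24 in day 5 Langerhans cells.

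JAK, STAT and SOCS genes form the signalling core below these receptors. Of 8 listed genes, these genes, their partners and Bcl3, 4 rose and 0 fell in Langerhans cells at day 5. In each of the 4 dermal populations 0 or 1 rose and 3 fell. The median differences were 0.96 in Langerhans cells and -0.12 to -0.38 in the others. Stat4, which transmits IL-12 and IL-23 signals, rose by 2.56 ± 0.28 in Langerhans cells (3.32 to 5.88, adjusted p = 7.12e-09), by 2.43 ± 0.28 in CD11b+ dendritic cells (3.43 to 5.86, adjusted p = 2.06e-07) and by 0.85 ± 0.28 in monocyte-derived dendritic cells. By day 11 it had fallen from its day 5 level by 1.74 ± 0.28 in Langerhans cells and by 1.62 ± 0.28 in CD11b+ dendritic cells. Jak2 and Stat3 went the other way in monocyte-derived dendritic cells at day 5, falling by 1.05 ± 0.24 and 1.24 ± 0.24. Bcl3, an atypical inhibitor of NF-kB, fell in MHCII-low macrophages at day 11 by 2.12 ± 0.32, in CD11b+ dendritic cells by 2.12 ± 0.32 and in monocyte-derived dendritic cells by 1.61 ± 0.32. In Langerhans cells at day 11 Tyk2, the kinase of the IL-12 and IL-23 receptors, rose by 1.26 ± 0.31.

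Of 17 transcription regulators, 6 rose and 1 fell in Langerhans cells at day 5. Irf8, which acts on the Il12b promoter, rose there by 2.58 ± 0.30 (adjusted p = 1.77e-08), and by 1.34 ± 0.30 and 1.30 ± 0.30 in CD11b+ and monocyte-derived dendritic cells. Maf, an activator of Il10 in macrophages, fell in Langerhans cells by 1.47 ± 0.30 at day 5 and by 1.67 ± 0.30 at day 11. At day 11 falls outnumbered rises in every population for these regulators, 8 of 17 in MHCII-high macrophages and 6 of 17 in MHCII-low macrophages against 1 rise in each. Rel, an NF-kB subunit, fell by 1.87 ± 0.35 and 1.65 ± 0.35 in these cells, beside the falls of Il6 and Tnf. Irf4 fell in CD11b+ dendritic cells by 1.12 ± 0.34 at day 5 and 1.96 ± 0.34 at day 11.

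Of genes listed for limits on cytokine RNA, shedding of cytokines or restraint of signalling, 7 of 11 fell in MHCII-high macrophages at day 11 and 0 rose. Among them the A20-binding protein gene Tnip3, listed for restraint of signalling, fell by 3.14 ± 0.46 (9.27 to 6.13). In Langerhans cells 4 of 11 fell at day 5 and 6 of 11 at day 11, among them Zfp36l1, an RNA-destabilising protein, by 1.29 ± 0.20 and 1.53 ± 0.20, and at day 5 the Roquin gene Rc3h1 by 1.14 ± 0.28. Of 9 genes for sensing through TLR7, the target of imiquimod, Unc93b1, which carries this receptor to endosomes, rose in Langerhans cells by 2.89 ± 0.37 at day 5 (adjusted p = 1.85e-07) and fell by 1.88 ± 0.37 from day 5 to day 11. Tlr7 itself was at 3.26 untreated and 3.40 at day 5 in Langerhans cells, below the threshold. Irak2, a kinase of this pathway, fell at day 5 by 2.09 ± 0.32 in MHCII-low macrophages and by 1.59 ± 0.32 in monocytes, and the inhibitory kinase gene Irak3 rose by 1.67 ± 0.38 in MHCII-high macrophages at day 11.

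Of 10 related cytokine genes tested, at most 2 rose in any population at either day. Ltb, which encodes lymphotoxin beta, rose in Langerhans cells by 2.84 ± 0.23 at day 11 (4.11 to 6.95, adjusted p = 3.68e-12) and was still 1.16 ± 0.23 higher at day 11 than at day 5, unlike Il23a and Osm, which fell between these days. The IL-6 family member Lif fell in monocyte-derived dendritic cells by 1.64 ± 0.43 at day 11 against untreated and by 2.35 ± 0.43 against day 5. Ebi3, which pairs with an IL-12 family subunit in IL-27, rose by 0.79 ± 0.25 in MHCII-low macrophages at day 11. Over all 67 pathway genes, 13 rose and 9 fell in Langerhans cells at day 5, whereas 0 rose and 20 fell in MHCII-low macrophages, against the shares of all genes given above. At day 11, 2 rose and 25 fell in MHCII-high macrophages, 2 and 17 in MHCII-low macrophages, 4 and 23 in CD11b+ dendritic cells, 1 and 15 in monocyte-derived dendritic cells and 8 and 17 in Langerhans cells.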

How the data were processed

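Per the submitters' processing notes, the authors normalised all 48 Affymetrix mouse gene arrays together by RMA, with the oligo and limma packages named and no versions given, and deposited log2 values. The values of the 3 deposited tables did not differ (largest difference 0), and the most complete one was used unaltered. Of 35556 probe sets, 21789 carried 1 gene symbol, and each symbol was compared with that of its gene identifier in RefSeq.

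Probe sets over the 40th percentile (3.77) on at least 3 arrays were kept, and the one with the highest mean represented a gene, which left 15591 genes. One limma 3.58.1 model in R 4.3.3 (lmFit and eBayes, a mean for each of 16 groups, 57 contrasts) gave two-sided tests, with Benjamini-Hochberg adjustment over the 15591 genes of each contrast. It was first tested on simulated data. The 7 members and all gene lists were chosen with earlier results of these data known. Genes outside the 7 were named by rule: per member the 3 genes most correlated over the 16 group means, and per treatment contrast the 3 largest rises and falls among the 67 pathway genes with no overlap of arrays, some of which are given here. Osmr, Tnfrsf1a, Il12rb1, Il12rb2, Tlr7 and Xcr1, the Il6st value in Langerhans cells and the marker genes lie outside that rule and were chosen after their values were seen. Depth does not apply to arrays, and their number limits precision. Levels of different probe sets were not compared. Alternatives were other normalisations, filters and probe set rules, only the groups compared, eBayes options, array weights, title numbers as blocks and leaving out arrays.

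Same-numbered samples, pooled over letters and days, deviated together at most weakly over all genes (median r = 0.018, from -0.17 to 0.33). With the first letter also shared the median r was 0.042 (from -0.11 to 0.33). The numbers were not taken as pairs. Several members did move together by number, so their values in different populations may not be independent.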

Additional observations from a re-analysis of the deposited data

Results flagged for a closer look

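The Langerhans cell response to imiquimod differed from that of a dermal population in 13 tests of the difference itself (limma interaction contrasts, adjusted over all genes), each with the Langerhans value higher. Untreated Langerhans and untreated dermal arrays have different opening title letters, whereas treated arrays of a day share 1. A batch tied to the letter and a difference between the responses therefore cannot be told apart in any of these tests. For Il23a at day 5 the Langerhans response exceeded that of monocytes by 1.76 ± 0.39 (adjusted p = 0.00189), of monocyte-derived dendritic cells by 2.14 ± 0.39 (adjusted p = 0.000165), of MHCII-low macrophages by 1.97 ± 0.39 (adjusted p = 0.000485) and of CD11b+ dendritic cells by 1.97 ± 0.39 (adjusted p = 0.000468). No single array left out lost any of these 4 calls, but without Langerhans day 5 replicate 3 the first was 1.14 (adjusted p = 0.00485), and fitted on the groups compared alone it was lost (adjusted p = 0.0944).

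For Osm the Langerhans response was higher than that of MHCII-low macrophages by 3.92 ± 0.50 at day 5 (adjusted p = 4.18e-07) and by 2.77 ± 0.50 at day 11 (adjusted p = 0.00017), and than that of MHCII-high macrophages by 2.05 ± 0.50 at day 11 (adjusted p = 0.00456). None of these 3 calls was lost with any single array left out. Against monocyte-derived dendritic cells at day 5 the difference was 1.57 ± 0.50 (adjusted p = 0.0385), lost without any 1 of 9 of its 12 arrays.

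For Il6 the Langerhans response was higher than that of MHCII-low macrophages by 3.04 ± 0.93 at day 5 (adjusted p = 0.0324) and by 3.37 ± 0.93 at day 11 (adjusted p = 0.0177), and than that of MHCII-high macrophages by 3.74 ± 0.93 at day 11 (adjusted p = 0.00607). The first was lost without any 1 of 8 of its 12 arrays, and the second without MHCII-low day 11 replicate 1, untreated Langerhans replicate 1 or 3 or day 11 Langerhans replicate 2. Fitted on the groups compared alone, all 3 were lost (adjusted p up to 0.119). Untreated Langerhans Il6 was over the filter threshold on only 1 of 3 arrays, so a fall as large as in the macrophages could hardly show there. In Langerhans cells Il6 itself passed at neither day, but without untreated replicate 2 the day 5 difference was 1.96 (adjusted p = 0.0368). The other 2 calls were for Tnf against MHCII-low macrophages at day 11 (2.16 ± 0.65, adjusted p = 0.0321, lost without any 1 of 7 of 12 arrays) and Il12a against the same cells at day 5 (0.72 ± 0.23, adjusted p = 0.0421, lost without any 1 of 11 of 12 arrays). Il12a lay below the threshold on every Langerhans array, where a fall like that of the macrophages could not be seen.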

How the results depend on the processing

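No member difference between groups that passed changed sign under any alternative run for it. Of 22 treatment and day calls, 11 were kept under every alternative run for them and 11 were lost under at least 1. Those were up to 13 settings and leaving out each of the 6 arrays compared, and under the stricter low-value filter Il12a had no value. The settings include another deposited table with the same values, which could not change a call. They also include averaging a gene's probe sets, which leaves the values of the members as they were. Il23a passed that filter only through the day 5 Langerhans arrays, so that its calls under it are no separate support. Fitting only the groups compared moved the day 11 calls against untreated from 11 to 6 and the day 11 calls against day 5 from 2 to 0. It moved the day 11 population pairs from 20 to 10 and the day 11 differences from the Langerhans response from 5 to 3. Fewer samples then stand behind each estimate of spread. At day 5 the same setting gained 3 calls against untreated and lost 1, and in population pairs it gained 9 and lost 1. The 3 gained against untreated were falls of Tnf and Il10 in MHCII-low macrophages and of Il6 in CD11b+ dendritic cells. The day 11 against day 5 calls were 1 with no low-value filter, 1 with the title number as a replicate block, and 1 without the day 11 arrays numbered 1 (chosen after seeing the data, like the setting without untreated monocyte replicates 2 and 3). The replicate block moved no other count of calls by over 1.5 times, but of the treatment and day tests 6 gained a call (adjusted p up to 0.0409) and 2 lost it. Gained were falls of Tnf and Il10 in MHCII-low macrophages and of Il6 and Il10 in CD11b+ dendritic cells at day 5, and of Il6 in monocyte-derived and Il10 in CD11b+ dendritic cells at day 11. Lost were the Langerhans Il12b rise at day 5 (adjusted p = 0.0689) and the Osm fall between the days (adjusted p = 0.0511). Among the differences between days, 2 that did not pass in the fit reported passed under some alternatives. Il10 in monocyte-derived dendritic cells passed without day 5 replicate 1 (adjusted p = 0.0401) and with median-centred arrays (adjusted p = 0.0364). Tnf in MHCII-low macrophages passed without day 11 replicate 3 (adjusted p = 0.038) and with array weights (adjusted p = 0.0121). Leaving out 1 array at a time gave 8 to 10 calls at day 5 against untreated (9 in the fit reported), 9 to 12 at day 11 (11), 1 to 4 between the days (2), 28 to 34, 20 to 25 and 17 to 21 for population pairs untreated, at day 5 and at day 11 (32, 22 and 20), and 5 to 10 and 3 to 6 for differences from the Langerhans response at day 5 and day 11 (8 and 5). Il12a and most Il23a values lie near the background of the arrays, where the size of small differences cannot be read.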
